A study of Saccharomyces cerevisiae with 11 samples.

Results

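The proteins of the large subunit of the cytosolic ribosome of the yeast Saccharomyces cerevisiae were followed through 80 genes of the 5593 named on both array designs of the study. They were chosen by symbol alone: RPL with a number and an optional A or B, or one of the stalk genes RPP0, RPP1A, RPP1B, RPP2A and RPP2B. Of these, 68 formed 34 pairs of A and B paralogs and 12 were described without a partner. The latter were 11 single-copy genes and RPL18B. RNA of cultures of strain S288C given 2 μM arsenate was labelled with Cy5, and RNA of control cultures given sodium chloride in place of arsenate was labelled with Cy3, on every one of 11 arrays. Low phosphate (100 μM) had 2 arrays for every time (4, 8 and 10 h after arsenate was added), whereas high phosphate (1 mM) had 2 for 4 h, 2 for 8 h and 1 for 10 h. All cultures grew in a defined medium with sucrose that differed in its phosphate, and every control had the same strain and medium as its arsenate culture.

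Arsenate resembles phosphate and enters yeast through phosphate carriers. The large subunit holds the site where peptide bonds form and the tunnel through which the growing chain leaves, and its proteins are made from some of the most abundant transcripts of a growing cell. In yeast most of them are encoded by a pair of genes left by an ancient duplication of the genome, and the regulators Rap1, Fhl1, Ifh1 and Sfp1 set the pace of their transcription, which is high in rich conditions and falls in starvation and stress.

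Each value is the authors' normalized ratio, taken as the log2 ratio of arsenate over control, so that 1 is a 2-fold ratio and 0 is equal abundance. The ratio is relative to the other RNA on the array, and the amount of ribosomal protein RNA per cell was not measured. Nothing in the labels tells if replicates came from separate cultures, so p-values measure the spread between these arrays, which may be technical. No array had the dyes swapped, so any dye bias of a gene remains in its ratio. All low phosphate arrays were of one design and all high phosphate arrays of another, so phosphate and array design cannot be told apart.

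The arrays held values for 4484 to 5451 genes, and all 80 genes had a value on every array except the second 8 h array at low phosphate, which lacked RPL41A and RPL41B. The genes were printed as 124 spots on each design, 36 with 1 spot and 44 with 2. Across these genes the replicates of a time correlated at 0.796, 0.693 and 0.823 (low phosphate, in order of time) and 0.821 and 0.248 (high phosphate, 4 h then 8 h), a description over genes that share arrays. The first 8 h array at high phosphate stood apart. On it 16 spots of 15 genes lay below -0.4, and all 16 were numbered 3508 or less in the table. Its spots up to number 4200 had an SD of 0.68 about a median of 0.01, and the spots above 4200 had an SD of 0.16 about a median of 0.27. Over all genes 23.1% of its spots up to 4200 lay below -1 against 2.87% of those above. Counts and medians at high phosphate, and the genes and pairs named there whose call it changes, are therefore given with and without it.

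**Figure D1:**
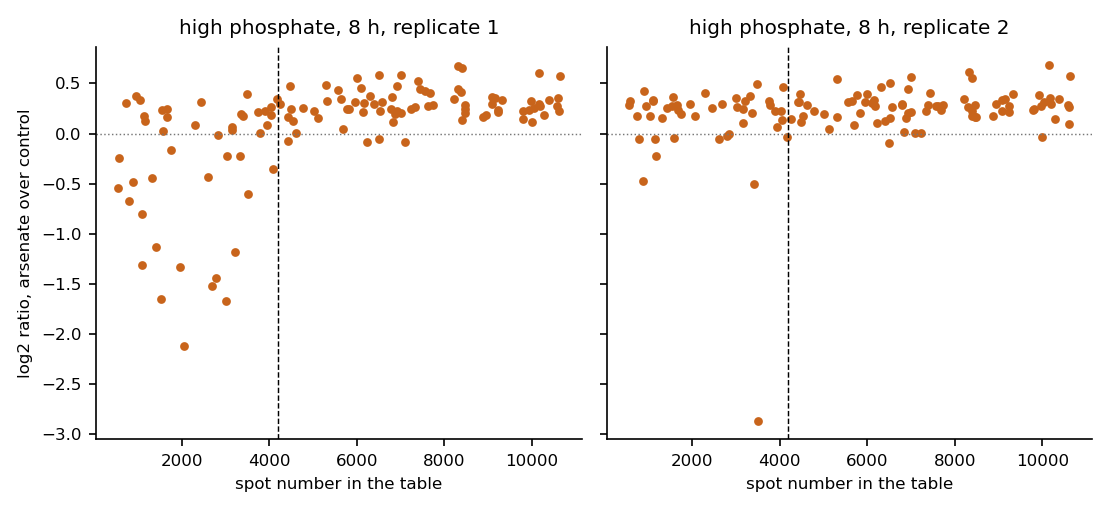
The 124 spots of the large subunit genes on the 2 high phosphate arrays at 8 h, with the spot number in the table on the x axis and the log2 ratio of arsenate over control on the y axis. On replicate 1 all 16 spots below -0.4 lie left of the dashed line at spot 4200, and on replicate 2 this holds for 3 spots.

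At low phosphate the transcripts of nearly all large subunit genes were relatively more abundant in arsenate than in control cultures. Averaged over the 3 times, 78 of the 80 genes were higher and 0 were lower in the limma test, against 19.1% of all 5185 genes tested that were higher. Their median ratio was 0.73, and the median over all genes was -0.0037. The highest were RPL33B at 1.03 (SE 0.08), the tunnel exit protein RPL25 at 1.02 (SE 0.07) and RPL9A at 1.00 (SE 0.07), and 2 did not pass, RPL15B at 0.06 (SE 0.07, adjusted p = 0.484) and RPL41B at 0.16 (SE 0.08, adjusted p = 0.12). On all 6 arrays jointly 64 of the 80 genes lay above 0, against 7.84% of the 4747 genes measured on all 6. Without the 8 h arrays 69 genes were higher with a median of 0.50, and 30 of the 78 were smaller by over 1.5 times. The 19.1% belongs to the fit of all 6 arrays, and the share of all genes without the 8 h arrays was not counted. Among those that no longer passed were RPL14B at 0.13 (adjusted p = 0.357), RPL15A at 0.14 (adjusted p = 0.323) and RPL22B at 0.22 (adjusted p = 0.121).

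**Figure D2:**
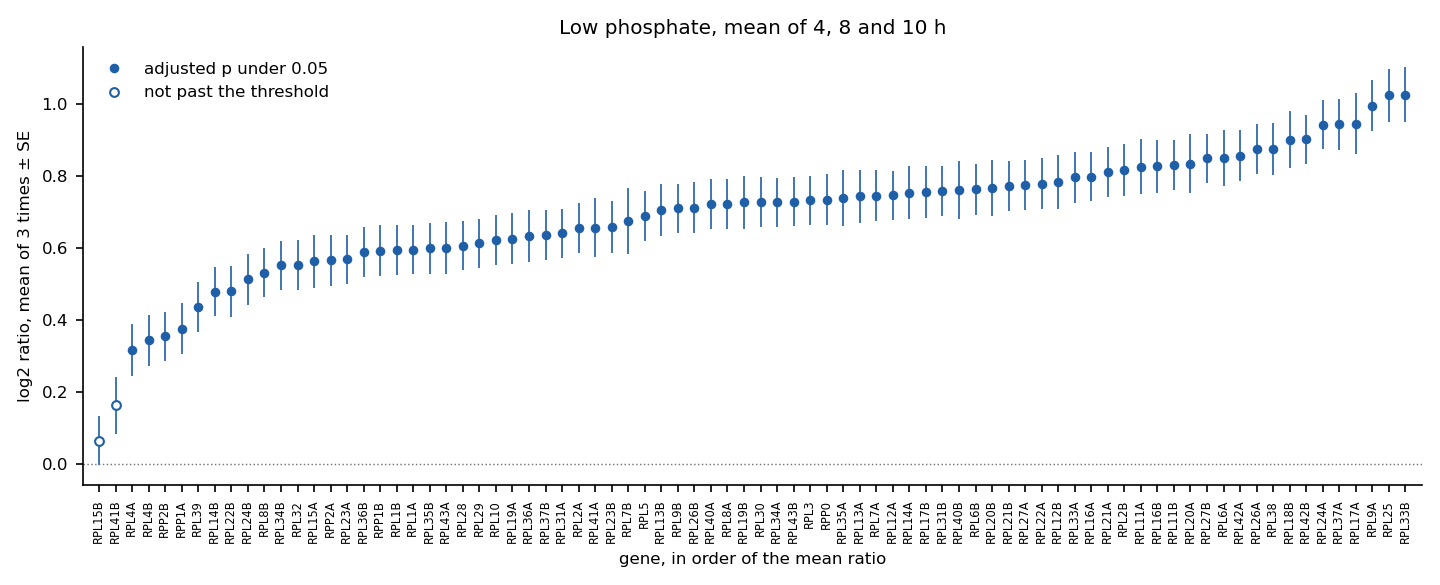
Mean log2 ratio of arsenate over control at low phosphate for each of the 80 genes, averaged over 4, 8 and 10 h, with limma's standard error as bars. Open circles are RPL15B and RPL41B, which did not pass the test, and filled circles are the 78 genes that did, between 0.32 and 1.03.

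**Figure D3:**
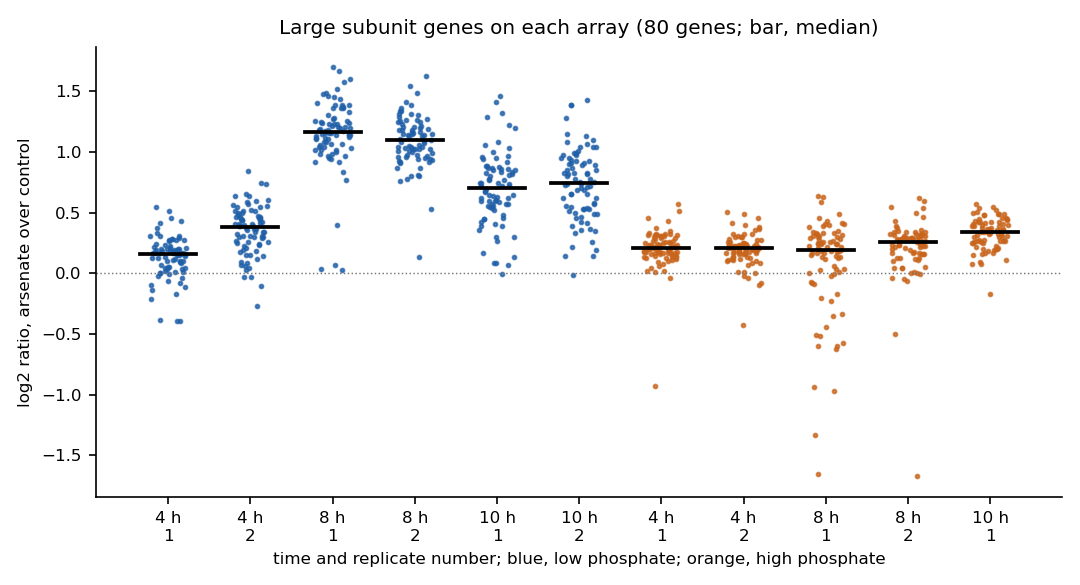
Log2 ratio of arsenate over control of each large subunit gene (points) and their median (bar) on each of the 11 arrays. The medians of the 2 low phosphate arrays at 8 h are 1.16 and 1.09, above those of every other array, and those of the 5 high phosphate arrays lie between 0.19 and 0.34.

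The stalk recruits the elongation factors that hydrolyse GTP, and all 7 of its genes were higher on average, with a median of 0.59. RPP0, which anchors the stalk to the ribosomal RNA, stood at -0.10 and 0.24 on the 4 h arrays, 1.36 and 1.26 at 8 h and 0.85 and 0.77 at 10 h (mean 0.73, SE 0.07, adjusted p = 1.64e-07). Its arrays at 8 h lay above both at 10 h, and these above both at 4 h. Acidic proteins hang from it in dimers of P1 and P2, and their genes did not all follow the same course. At 10 h RPP1A stood near RPP2B, and RPP1B near RPP2A. RPP1A read 0.01 and 0.30 at 4 h, then 0.92 and 0.80 at 8 h and finally 0.08 and 0.15 at 10 h. In the same order RPP1B read 0.01 and 0.35, 0.97 and 1.10, and 0.54 and 0.58. RPP2B read 0.03 and 0.14, 0.92 and 0.81, and 0.08 and 0.14 at the same times, and RPP2A read -0.08 and 0.09, 1.15 and 0.87, and 0.62 and 0.75. At 10 h RPP1B and RPP2A passed, at means of 0.56 and 0.68, and RPP1A (adjusted p = 0.501) and RPP2B (adjusted p = 0.5) did not. RPL12A and RPL12B, which encode the protein at the base of the stalk, averaged 0.75 (SE 0.07) and 0.78 (SE 0.08). Without the 8 h arrays RPP1A stood at 0.13 (adjusted p = 0.37) and RPP2B at 0.10 (adjusted p = 0.515), in ranges over their alternatives from 4.16e-06 to 0.37 and from 1.46e-05 to 0.515, while RPP0, RPP1B, RPP2A and RPL12A stood at 0.44, 0.37, 0.34 and 0.43 and passed.

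RPL5 and RPL11 join the 5S ribosomal RNA before they enter the subunit, and 3 of their 3 genes were higher with a median of 0.83. RPL5 read -0.02 and 0.19 at 4 h, then 1.16 and 1.00 at 8 h and finally 0.89 and 0.91 at 10 h. RPL11A read 0.16 and 0.45, 1.14 and 1.55, and 0.72 and 0.94, close to RPL11B at 0.17 and 0.46, 1.23 and 1.34, and 0.89 and 0.89. All 3 thus had their lowest arrays at 4 h and their highest at 8 h.

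Around the site of peptide bond formation, 4 of 4 genes were higher, with a median of 0.69. RPL3, which reaches toward that site, went from -0.14 and 0.05 at 4 h to 1.48 and 1.34 at 8 h and stood at 0.84 and 0.82 at 10 h. RPL10, the last of these proteins to join the subunit, read -0.01 and 0.19, 1.23 and 1.08, and 0.59 and 0.65. RPL2A and RPL2B averaged 0.65 (SE 0.07) and 0.82 (SE 0.07). In this group every gene read lower on both 4 h arrays than on any later array. This was not particular to the group. RPL5, RPL11A, RPL11B, RPP0, RPL12B, RPL17A, RPL25, RPL26A and other large subunit genes did so too, whereas RPP1A, RPP2B and RPL39 did not. How many large subunit genes or how many of all genes did so was not counted. Without the 8 h arrays RPL3, RPL10 and RPL2A stood at 0.39, 0.36 and 0.41 and passed.

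The proteins at the tunnel exit, where chaperones and targeting factors meet the new chain, had 12 of 12 genes higher with a median of 0.73. RPL25, the docking point of the signal recognition particle, was the highest of them, with 0.51 and 0.49 at 4 h, then 1.58 and 1.23 at 8 h and finally 1.29 and 1.04 at 10 h. RPL39, a very small protein of the tunnel wall, was the lowest, with 0.16 and 0.41, 0.40 and 0.53, and 0.57 and 0.53 (mean 0.43, SE 0.07, adjusted p = 7.3e-05). Its 8 h arrays did not stand above the others. RPL17A averaged 0.95 (SE 0.09), RPL17B 0.75 (SE 0.07), RPL26A 0.87 (SE 0.07), RPL26B 0.71 (SE 0.07), RPL31A 0.64 (SE 0.07) and RPL31B 0.76 (SE 0.07). RPL19A and RPL19B stood at 0.63 and 0.73, and RPL35A and RPL35B at 0.74 (SE 0.08) and 0.60 (SE 0.07). Without the 8 h arrays RPL31B and RPL35B came to 0.50 and 0.37 and passed.

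RPL40A and RPL40B, which are made as fusions to ubiquitin, averaged 0.72 (SE 0.07) and 0.76 (SE 0.08). RPL24 and RPL41 form bridges to the small subunit, and 3 of their 4 genes were higher. RPL24A read 0.24 and 0.26 at 4 h, then 1.21 and 1.14 at 8 h and finally 1.42 and 1.39 at 10 h, and was still highest at 10 h. RPL24B read -0.11 and 0.07, 1.14 and 1.05, and 0.59 and 0.34, and came to 0.22 without the 8 h arrays (adjusted p = 0.113). RPL41A and RPL41B, which encode an identical very short protein, are described with the paralogs.

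The 11 single-copy genes were all higher, with a median of 0.69 against 0.73 for the 68 paired genes, of which 66 were higher. RPL38 averaged 0.87 (SE 0.07), RPL30, which represses the splicing of its own transcript, 0.73 (SE 0.07), RPL29 0.61 (SE 0.07), RPL28, the target of cycloheximide resistance mutations, 0.61 (SE 0.07) and RPL32 0.55 (SE 0.07). Without the 8 h arrays RPL30 stood at 0.44 and passed. The lowest of the genes that passed were RPL4A and RPL4B, which line the exit tunnel. RPL4A read -0.39 and -0.03 at 4 h, then 1.06 and 0.98 at 8 h and finally 0.07 and 0.22 at 10 h. RPL4B read -0.38 and -0.10, 1.20 and 1.02, and 0.13 and 0.19. For both copies the 8 h arrays stood far above the others, the highest of which was at 0.22, and their means of 0.32 (SE 0.07) and 0.34 (SE 0.07) became -0.04 for each without them (adjusted p = 0.851 and 0.818, in ranges from 0.000127 to 0.851 and 2.88e-05 to 0.818).

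The ratios were lowest at 4 h, highest at 8 h and between these at 10 h. At 4 h the median was 0.27 and 21 genes were higher, against 14.7% of all genes. The highest were RPL20B at 0.58 ± 0.38 (SD, n = 2), RPL38 at 0.56 ± 0.26 and RPL7B at 0.55 ± 0.01. RPL15B alone was lower, at -0.39 and -0.27 (adjusted p = 0.0459), where 11.6% of all genes were lower. With the replicate number as a block that call was lost (adjusted p = 0.0685, range over alternatives 0.00606 to 0.283). The count of higher genes at 4 h turned on single arrays: it was 45 without the first 4 h array, 4 without the second, 13 without the first 8 h array, the second 8 h array or the first 10 h array, and 12 without the second 10 h array. The share of all genes in each of these fits was not counted, so the counts have no background. The medians of the genes on the 4 h arrays were 0.16 and 0.38, and those of all genes on the same arrays were -0.07 and 0.18.

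At 8 h the median was 1.12 and 78 genes were higher, against 18.3% of all genes, while the median of all genes was -0.13. RPL18B read 1.70 and 1.31, RPL33B 1.36 and 1.63, RPL26A 1.52 and 1.38 and RPL13A 1.49 and 1.41. The 2 that did not pass were RPL41B at 0.07 on its 1 array (adjusted p = 0.766) and RPL15B at 0.02 and 0.14 (adjusted p = 0.596). RPL7B read 0.04 on the first and 0.97 on the second 8 h array from its single spot, and its mean of 0.50 passed (adjusted p = 0.0146).

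At 10 h the median was 0.71 and 74 genes were higher, against 20.2% of all genes. RPL24A stood at 1.40 ± 0.02 (SD, n = 2), RPL9A at 1.36 ± 0.04 and RPL6A at 1.19 ± 0.34. Of the 6 that did not pass, RPL14B was at -0.01 ± 0.01 (adjusted p = 0.972), beside RPP1A and RPP2B, RPL4A at 0.14 ± 0.10 (adjusted p = 0.399), RPL4B at 0.16 ± 0.04 (adjusted p = 0.327) and RPL41A at 0.26 ± 0.13 (adjusted p = 0.111). These same genes had all been higher at 8 h.

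The differences between times were tested in the same fit. From 4 to 8 h 74 genes rose and 0 fell, against 12.1% of all genes that rose, with a median difference of 0.87. The largest were RPL41A at 1.63 (SE 0.21), whose 8 h value came from 1 array, RPL15A at 1.52 (SE 0.18), RPL3 at 1.46 (SE 0.17) and RPL4B at 1.35 (SE 0.17). The 6 that did not pass were RPL7B at -0.05 (adjusted p = 0.888), RPL41B at -0.03 (adjusted p = 0.938), RPL39 at 0.18 (adjusted p = 0.455), RPL33A at 0.35 (adjusted p = 0.13), RPL15B at 0.41 (adjusted p = 0.0652) and RPL20B at 0.46 (adjusted p = 0.0706).

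From 8 to 10 h 35 genes fell and 0 rose, against 14.8% of all genes that fell, and the median difference of -0.39 stood beside 0.22 for all genes. The largest falls were those of RPL41A at -1.40 (SE 0.21), RPL14B at -1.17 (SE 0.17), RPL13A at -1.0 (SE 0.18) and RPL15A at -0.99 (SE 0.18). RPL14B went from 1.24 and 1.09 to -0.00 and -0.01, and its partner RPL14A from 1.24 and 0.92 to 0.75 and 0.90. At the other end RPL7B stood at 0.47 (SE 0.23, adjusted p = 0.0995, 0.0449 with the replicate block, range over alternatives 0.00377 to 0.997, and 0.93 without the second 8 h array), RPL15B at 0.36 (SE 0.17), RPL41B at 0.25 (SE 0.21) and RPL24A at 0.23 (SE 0.16). The count of genes that fell was 14 without the first 8 h array and 19 without either 10 h array. With each array centred on its gene median it was 64, since centring takes out the shift of all genes. For these alternatives the share of all genes that fell was not counted.

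Between 4 and 10 h 42 genes rose and 0 fell, against 18.1% of all genes that rose, with a median difference of 0.48. RPL9A rose by 1.17 (SE 0.17) and RPL24A by 1.15 (SE 0.16). RPL14B stood at -0.28 (SE 0.17, adjusted p = 0.212) and RPP1A at -0.04 (SE 0.17, adjusted p = 0.888). The count was smaller without either 10 h array, and the share of all genes in those fits was not counted.

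**Figure D4:**
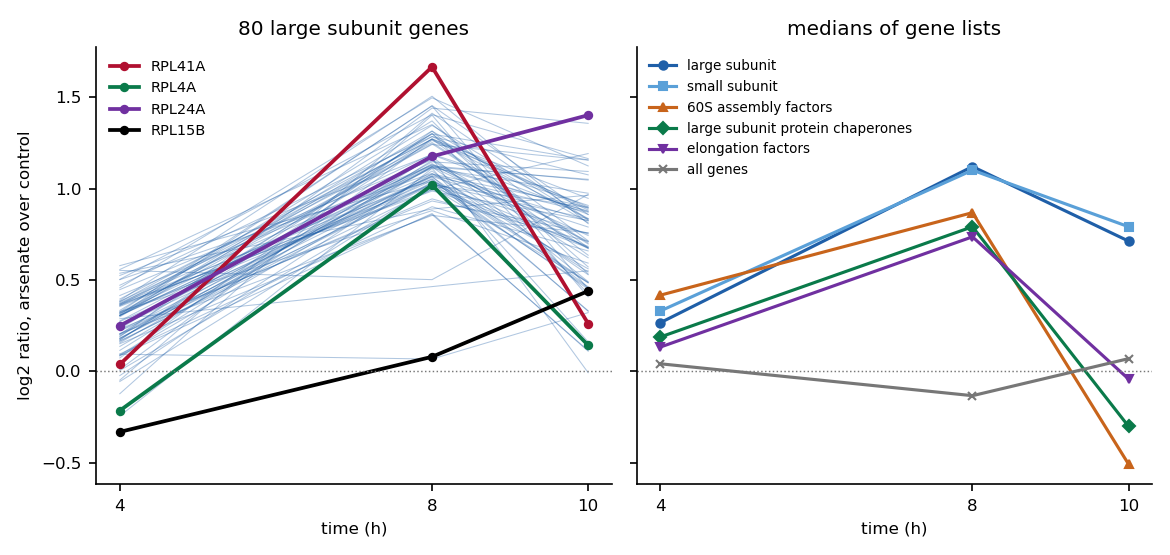
Left, the mean log2 ratio of each of the 80 large subunit genes at 4, 8 and 10 h of low phosphate, with 4 genes in colour. RPL41A reaches 1.66 at 8 h on 1 array and 0.26 at 10 h, while RPL24A goes on to 1.40. Right, medians of gene lists: both ribosomal subunits stay above 0 at 10 h, and the assembly factors stand at -0.51.

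The paralogs of a pair were compared within each array, where a shift of the whole array cancels. At low phosphate 15 of the 34 pairs differed on average, 12 with the A copy higher and 3 with the B copy higher. Of all 60 A and B pairs tested, 50% differed. These 60 are the 34 pairs themselves, 24 pairs of the small subunit and 2 others. Shares of all pairs, here and below, thus come almost wholly from ribosomal protein pairs and give no genome background. Among the 24 pairs of the small subunit 14 differed, 7 in each direction. The probes of the spots were not used here, so whether a probe also binds the other copy was not tested, and differences between copies may be larger or smaller than measured.

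RPL24 showed the clearest split: A minus B was 0.35 and 0.19 at 4 h, then 0.07 and 0.09 at 8 h and finally 0.83 and 1.05 at 10 h (mean 0.43, SE 0.05, adjusted p = 0.000451). The A copy was higher on 6 of 6 arrays, and the 10 h arrays stood apart from the rest. RPL37, a zinc finger protein, differed by 0.05 and 0.15, 0.11 and 0.35, and 0.52 and 0.66 (mean 0.31, SE 0.05, adjusted p = 0.00178). RPL22, a protein that is not essential, differed by 0.21 and 0.24, 0.17 and 0.35, and 0.27 and 0.56 (mean 0.30, SE 0.06, adjusted p = 0.00231). In both the A copy was higher on 6 of 6 arrays. RPL9 crossed over: A minus B was -0.42 and -0.21 at 4 h, then 0.25 and 0.47 at 8 h and finally 0.77 and 0.85 at 10 h (mean 0.29, SE 0.06, adjusted p = 0.00254).

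The largest mean differences were those of RPL15 and RPL41, and both came from 8 h. RPL15A read -0.21 and -0.03 at 4 h, then 1.60 and 1.20 at 8 h and finally 0.39 and 0.42 at 10 h, while RPL15B read -0.39 and -0.27, 0.02 and 0.14, and 0.42 and 0.46. Their difference at 8 h was 1.58 and 1.06, and at 10 h it was -0.03 and -0.04. The mean difference of 0.50 (SE 0.07, adjusted p = 0.000548) came to 0.09 without the 8 h arrays (adjusted p = 0.28, range over alternatives 1.21e-05 to 0.28). The 2 spots of RPL15B disagreed at 8 h, with -0.33 and 0.38 on the first array and 0.43 and -0.16 on the second.

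RPL41A stood at 1.66 and RPL41B at 0.07 at 8 h, each from 1 spot on the first array. The second spot of each gene had no value there, and neither gene had any on the second 8 h array. On the other arrays the copies stood close, at -0.04 and 0.12 for RPL41A and 0.04 and 0.15 for RPL41B at 4 h, and at 0.17 and 0.35 against 0.30 and 0.35 at 10 h. The mean difference of 0.49 (SE 0.06, adjusted p = 0.000516) thus rests on 1 spot of each gene and was -0.06 without the 8 h arrays (adjusted p = 0.541, range over alternatives 3.38e-05 to 0.541).

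At the other end RPL1 differed by 0.00 (SE 0.06), RPL11 by -0.0042 (SE 0.06) and RPL4 by -0.03 (SE 0.05). The 2 copies of RPL4 thus shared their low values at 4 and 10 h and their high value at 8 h. The B copy was higher in RPL33 (A minus B -0.23, SE 0.07, adjusted p = 0.0177), in the stalk pair RPP1 (-0.22, SE 0.05, adjusted p = 0.00796) and in RPL2 (-0.16, SE 0.06, adjusted p = 0.0394). In RPP1 the B copy was higher on 6 of 6 arrays.

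The tests of each time were added after the data had been seen. At 4 h 0 of 34 pairs differed (4 at an unadjusted p under 0.05 in limma), against 3.33% of all pairs. At 8 h 8 differed, against 33.3%, and at 10 h 18 differed, against 53.3%, of which 12 had the A copy and 6 the B copy higher. The pairs that differed at 8 h and those at 10 h had 2 in common, RPL9 and RPL13. In RPL9 the A copy was higher at both times (0.36 and 0.81). In RPL13 the sign turned, from 0.38 at 8 h to -0.34 at 10 h. The overlap among all pairs was not counted, so these 2 cannot be set against a background. Between 8 and 10 h the difference itself changed in 14 pairs, against 35% of all pairs. In RPL14, A minus B went from 0.00 and -0.18 to 0.75 and 0.91 (adjusted p = 0.00111). In RPL12 it went from 0.16 and 0.35 to -0.75 and -0.28 (adjusted p = 0.0108), and in RPL13 from 0.33 and 0.44 to -0.51 and -0.17 (adjusted p = 0.00713). In RPL12 and RPL13 the copy that was higher at 8 h was the lower at 10 h. The number of pairs was 7 in place of 15 for the mean without the second 4 h array, 5 in place of 8 at 8 h without the first 8 h array, and 8 in place of 14 between 8 and 10 h without either 4 h array.

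**Figure D5:**
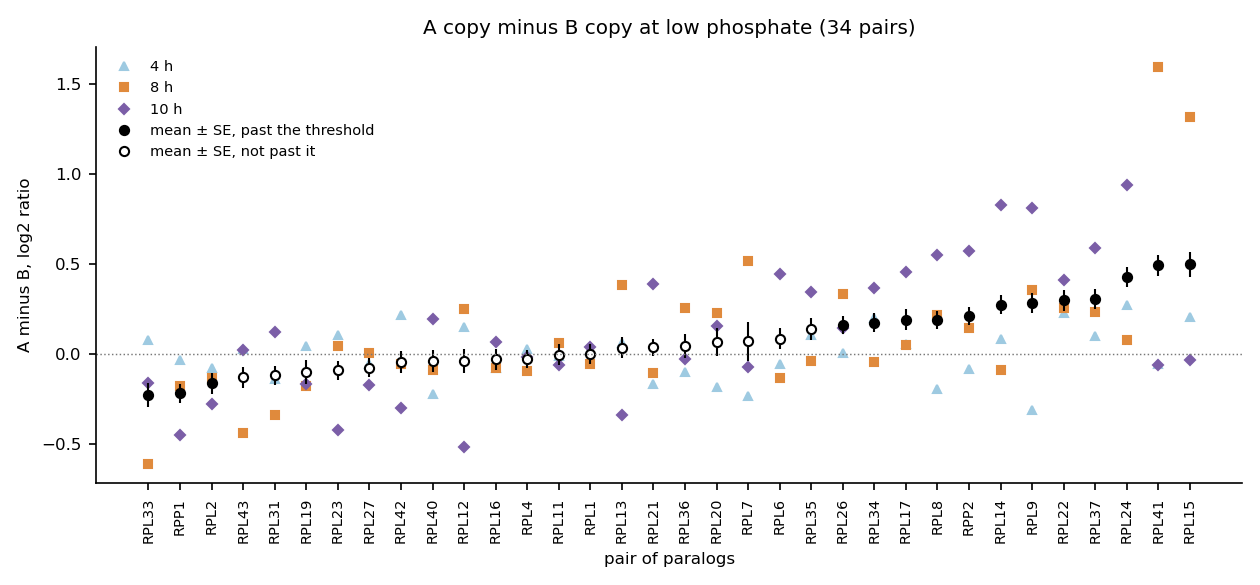
A minus B in log2 ratio of arsenate over control for each of the 34 pairs at low phosphate: the mean of the 3 times with its standard error (circles, filled where it passed the test) and the mean at each time. The squares at 8 h for RPL41 and RPL15 stand at 1.60 and 1.32, and the diamonds at 10 h for RPL24, RPL14 and RPL9 at 0.94, 0.83 and 0.81.

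At high phosphate the large subunit genes stood slightly above control. Their median over the times was 0.24 and that of all genes was -0.12, and 52 of the 80 genes lay above 0 on each of the 5 arrays, against 12.8% of the 4107 genes measured on all 5. No gene passed the limma test: 0 of 80 and 0% of all genes were higher, the smallest adjusted p among the 80 was 0.0678, and 55 were higher at an unadjusted p under 0.05, against 9.53% of all genes. By time the medians were 0.20, 0.21 and 0.34 at 4, 8 and 10 h. At an unadjusted p under 0.05, 15, 31 and 31 were higher, against 2.74%, 6.58% and 4.78% of all genes, and 0 passed after adjustment at any time. The 10 h group is 1 array, so its test takes the spread from the 4 h and 8 h pairs.

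Without the first 8 h array 54 genes were higher and 1 was lower, against 7.73% and 22.1% of all genes, and the median was 0.26. Then 39, 37 and 52 genes were higher at 4, 8 and 10 h at an unadjusted p under 0.05, against 6.74%, 8.61% and 11.5% of all genes, with medians of 0.20, 0.26 and 0.34. These tests take the spread from the 4 h pair alone. Without the second 8 h array 34 were higher and 3 lower, against 5.45% and 21.9%. On spots numbered above 4200 only, 31 of 59 genes were higher and 0 lower, against 4.86% and 7.47%, an alternative chosen after seeing the data. The count at high phosphate thus changed when either 8 h array, or the spots up to 4200 of all 5 arrays, were left out.

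The 4 highest genes at high phosphate each stood below the median of 0.73 at low phosphate. RPL41B read 0.51 and 0.51 at 4 h, then 0.63 and 0.62 at 8 h and finally 0.49 at 10 h (mean 0.54, SE 0.05, adjusted p = 0.0678). RPL41A read 0.57 and 0.49, 0.63 and 0.60, and 0.42. RPL39 read 0.46 and 0.39, 0.49 and 0.55, and 0.52, and RPL29 0.43 and 0.35, 0.59 and 0.54, and 0.49. These 4 stood above 0 on every array, with little spread between times. Each passed without either 8 h array, but over all alternatives the adjusted p in limma reached 0.329 for each.

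RPL15B was the lowest, at -0.93 and -0.43 at 4 h, then -0.60 and -1.67 at 8 h and finally -0.17 at 10 h (mean -0.66, SE 0.21, adjusted p = 0.13). It was below 0 on every array, and lower without the first 8 h array (-0.84, adjusted p = 0.0241, range over alternatives 0.0241 to 0.398), but its 2 spots on the second 8 h array read -0.47 and -2.87. RPL36B, RPL33B and RPL20B followed at -0.11, -0.09 and -0.08. They were lowest on the first 8 h array, where they read -1.65, -0.97 and -1.33 against 0.27, 0.16 and 0.29 on the second. On that first array the 2 spots of RPL33B read -2.13 and 0.18. Without it RPL36B stood at 0.21 (adjusted p = 0.049), and without the second 8 h array at -0.43 (adjusted p = 0.0226), in a range over alternatives up to 0.979.

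Between paralogs at high phosphate 0 of 34 pairs differed in the limma test, against 0% of all pairs, and 5 did at an unadjusted p under 0.05, against 13.3%. Without the first 8 h array 7 differed, against 23.3%, and without the second 13 differed, against 37.3%. RPL22A exceeded RPL22B by 0.28 and 0.28 at 4 h, then 0.28 and 0.29 at 8 h and finally 0.11 at 10 h (mean 0.22, SE 0.03, adjusted p = 0.171), as it did on the low phosphate arrays. Without the first 8 h array RPL22 stood at 0.23 and passed (adjusted p = 0.00369), in a range over alternatives from 0.00146 to 0.572. RPL15A exceeded RPL15B on 5 of 5 arrays (mean 1.07, SE 0.22, adjusted p = 0.205). Without the first 8 h array RPL15 stood at 1.25 and passed, in a range of adjusted p over alternatives from 1.63e-27 to 0.627. The fits of pairs without either 8 h array have 1 residual degree of freedom and give every pair the same pooled spread, so their small p-values rest on that spread. RPL24 stood at -0.09 (SE 0.04) and RPL37 at -0.06 (SE 0.05), on the other side of 0 from low phosphate, and at -0.09 and -0.10 without the first 8 h array. Of the 15 pairs that differed at low phosphate 9 had the same sign at high phosphate, as had 18 of the 34.

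The responses in the 2 media were compared by the difference of the ratios, low minus high phosphate, over all 11 arrays. Phosphate and array design cannot be told apart in this difference, so it does not show dependence on phosphate alone. Averaged over the times, 63 genes had a higher ratio at low phosphate and 1 a lower one, against 19% and 4.92% of all 4841 genes, with a median difference of 0.50 beside 0.15 for all genes. RPL33B differed most, by 1.11 (SE 0.20, adjusted p = 0.00791), followed by RPL20B at 0.84 (SE 0.27, adjusted p = 0.0542), RPL18B at 0.84 (SE 0.12, adjusted p = 0.00359) and RPL37A at 0.84 (SE 0.14, adjusted p = 0.00634). On the first 8 h array at high phosphate RPL33B read -0.97 and RPL37A -0.51, against 0.16 and 0.24 on the second, which enlarges their differences. RPL20B did not pass, and did at 0.57 without the first and at 1.11 without the second 8 h array at high phosphate (adjusted p over its alternatives 7.98e-05 to 0.132). The count of 63 turned on single arrays. It rose without either 8 h array at high phosphate and fell without some of the other arrays.

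RPL41B was the lower one, at -0.38 (SE 0.08, adjusted p = 0.0179). That call was lost without the first 10 h array at low phosphate (adjusted p = 0.0528, range over alternatives 0.00423 to 0.0528). RPL39 at -0.05 (SE 0.08, adjusted p = 0.676), RPL4A at -0.04 (SE 0.09, adjusted p = 0.765) and RPL4B at 0.01 (SE 0.09, adjusted p = 0.937) came next and did not pass.

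At 8 h 77 genes were higher at low phosphate, against 18.8% of all genes, with a median of 0.98 beside 0.11 for all genes. With single arrays left out this count was never larger, and with some it was smaller. RPL39 (-0.05, adjusted p = 0.804) and RPL7B (0.51, adjusted p = 0.171, and 0.98 without the first 8 h array at low phosphate) did not pass. RPL41B was lower, against 9.92% of all genes, at -0.56 (SE 0.16, adjusted p = 0.032), from 1 array at low phosphate. With the replicate block it did not pass (adjusted p = 0.0688, range over alternatives 0.0108 to 0.0688), nor without the first 8 h array at high phosphate (adjusted p = 0.052). It also failed without the second 8 h array or either 10 h array at low phosphate, without either 4 h array at high phosphate, and with array weights (adjusted p = 0.0581 to 0.0613). At 4 h 0 of 80 genes passed in limma, against 7.6% of all genes that were higher, and 2 were higher at an unadjusted p under 0.05, against 23.2%. The median was 0.09 at 4 h, below the 0.19 of all genes. At 10 h, where high phosphate had 1 array, it was 0.40 beside 0.12 for all genes.

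Other gene lists of the pathway are set beside the large subunit at low phosphate, with no test between lists. Of the 55 small subunit genes 25, 55 and 52 were higher at 4, 8 and 10 h, with medians of 0.33, 1.10 and 0.79 beside 0.27, 1.12 and 0.71. The shares of all genes that were higher at these times were 14.7%, 18.3% and 20.2%. Of 59 factors that assemble the large subunit in the nucleolus, nucleus and cytoplasm, 38 were higher at 4 h and 57 at 8 h, with medians of 0.42 and 0.87 beside 0.27 and 1.12. At 10 h 0 were higher and 50 lower, against 12.8% of all genes that were lower, with a median of -0.51. Between 8 and 10 h 59 of 59 assembly factors fell, with a median of -1.42, where 35 of the 80 large subunit genes fell with a median of -0.39. Of all genes 14.8% fell.

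Each of 5 dedicated chaperones escorts 1 large subunit protein or a joined pair to its place of assembly. At 8 h 5 of 5 were higher, against 18.3% of all genes. RRB1, the chaperone of RPL3, stood at 1.03 (SE 0.13) at 8 h and -0.30 (SE 0.13, adjusted p = 0.0859) at 10 h, when RPL3 itself was at 0.83 ± 0.01 (SD, n = 2). SYO1, which carries RPL5 and RPL11 into the nucleus, stood at 0.99 (SE 0.12) and then at -0.62 (SE 0.12, adjusted p = 0.000602). SQT1, the chaperone of RPL10, stood at 0.79 and -0.15, ACL4, that of RPL4, at 0.57 and -0.35, and BCP1, that of RPL23, at 0.35 and -0.14. From 8 to 10 h 5 of 5 fell, against 14.8% of all genes, with a median difference of -0.94.

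Elongation factors had 7 of 9 genes higher at 8 h (median 0.74), against 18.3% of all genes. At 10 h 0 were higher and 2 lower (median -0.04), against 20.2% and 12.8%. YEF3, the fungal elongation factor that frees the exit site, went from 0.82 (SE 0.12) to -0.49 (SE 0.12, adjusted p = 0.00406), and TEF4 from 0.60 (SE 0.12) to -0.58 (SE 0.12, adjusted p = 0.00135). Of 10 regulators of ribosomal protein genes with values, 1 was higher and 1 lower at 8 h, against 18.3% and 30.5% of all genes, and 3 were higher and 2 lower at 10 h, against 20.2% and 12.8%. At 10 h these shares are near those of all genes. RAP1 was higher at 10 h at 0.73 (SE 0.12, adjusted p = 0.000142) and FHL1 at 0.37 (SE 0.12, adjusted p = 0.0255). TOD6, a repressor of ribosome assembly genes, went from 0.94 (SE 0.13) at 8 h to -0.49 (SE 0.13, adjusted p = 0.00755) at 10 h. IFH1 (0.04 and -0.10) and SFP1 (0.14 and 0.31) did not pass at either time.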

How the data were processed

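Per the labels, the authors hybridised Cy5 RNA of arsenate cultures against Cy3 RNA of control cultures and used spots with a flag value of 0 for normalization. The values were deposited as normalized log ratios and were taken as log2 with arsenate over control from the dyes; base, centring, method, scanner and software were not stated there. Intensities were not used, so signal over background is unknown, and the number of arrays limits the precision. Spots were averaged per gene. Genes with a value in every group and at least 1 residual degree of freedom were fitted with limma 3.58.1 (lmFit, eBayes) in R 4.3.3, two-sided, with p-values adjusted by Benjamini-Hochberg across every gene tested (5185 at low phosphate, 4816 at high, 4841 for both, 60 paralog pairs) and a threshold of 0.05. The prior degrees of freedom, which weigh the pooled spread, were 15.5, 1.72 and 3.49 for the gene fits. Tables used Python 3.11.15 and pandas 2.3.3. The limma fit was checked on simulated low phosphate arrays with independent noise, for the mean of the times only. The genes, gene lists and naming rule were chosen with earlier results of these data known. Named with values are role groups, the 4 highest and 4 lowest genes of the main comparisons, genes called against the majority, up to 6 that missed the threshold where most passed, and the 6 largest and 3 smallest paralog differences; genes named beyond these were chosen after their values were seen. At low phosphate, same-numbered arrays deviated together (correlations across genes of 0.109, 0.136 and 0.19 between times), which met the bar for pairing. The reported fits have no replicate block, and the block was fitted as an alternative, printed where it changed a call.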

Additional observations from a re-analysis of the deposited data

Results flagged for a closer look

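The differences below were each tested in limma as a difference between groups, with phosphate and array design not separable in the first 2. Low minus high phosphate, averaged over the times, was higher in 63 genes and lower in 1: RPL33B stood at 1.11, RPL18B at 0.84, RPL37A at 0.84 and RPL41B at -0.38. The differences of RPL33B and RPL37A are enlarged by their low values on the first 8 h array at high phosphate. At 8 h the same difference was higher in 77 genes and lower in 1, RPL41B at -0.56.

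Between the times of low phosphate, 8 h exceeded 4 h in 74 genes, led by RPL41A at 1.63, RPL15A at 1.52, RPL3 at 1.46 and RPL4B at 1.35. From 8 to 10 h 35 genes were lower, led by RPL41A at -1.40, RPL14B at -1.17, RPL13A at -1.0 and RPL15A at -0.99, and 10 h exceeded 4 h in 42 genes. The values of RPL41A at 8 h come from 1 spot on 1 array.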

How the results depend on the processing

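Counts of genes and pairs were recomputed with medians of spots, genes measured on every array, centred or scaled arrays, the replicate block, robust empirical Bayes, array weights and each array left out, and 244 such counts stayed within 1.5 times while 29 did not. At 4 h of low phosphate the 21 higher genes became 35 after centring and scaling and 0 with array weights, and 4 to 45 with 1 array left out. The 35 genes that fell from 8 to 10 h became 64 after centring and 14 to 46 with 1 array left out, and the 42 that rose from 4 to 10 h became 23 with array weights and 13 to 57. At high phosphate the count of 0 ranged from 0 to 54 for the mean and 0 to 2 at 8 h with 1 array left out, and was 31 of 59 on spots numbered above 4200. Paralog pairs ranged from 7 to 15 at low phosphate (15 in all), from 5 to 12 at 8 h, from 8 to 14 for 10 h minus 8 h and from 0 to 13 at high phosphate, where spots above 4200 gave 2. At 4 h the 0 pairs became 1 with scaled arrays and 1 with array weights. Shares of all genes or of all pairs were not counted for these alternatives, except where given above. Directions turned for RPL4A (-0.035), RPL4B (-0.041) and RPL41A minus RPL41B (-0.058) without the 8 h arrays, and for RPL36B at high phosphate (0.21) without the first 8 h array, which was lower (-0.43) without the second; the cause was not tested. The replicate block ended the calls of RPL15B at 4 h and of RPL41B in low minus high phosphate at 8 h, added RPL7B from 8 to 10 h, and changed no other call among the named genes and pairs; at high phosphate the numbers were not taken as pairs (correlation -0.02). Without the 8 h arrays, RPL14B, RPL15A, RPL22B, RPL24B, RPL41A, RPP1A, RPP2B and RPL15A minus RPL15B also missed the threshold.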
